A study of Drosophila melanogaster with 8 samples.

Results

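The odorant, gustatory and ionotropic receptors of Drosophila melanogaster are the membrane proteins with which the fly smells and tastes. Their genes were found by name, as probe sets annotated to a single gene symbol that is Orco or is Or, Gr or Ir followed by digits and a letter. This gave 186 of the 18769 probe sets tested, for 166 genes. There were 63 probe sets for 57 odorant receptor genes, 63 for 56 gustatory receptor genes and 60 for 53 ionotropic receptor genes. The same naming rule finds 186 receptor genes in RefSeq, of which 20, Or83a, Or19a, Or19b and Gr64b among them, had no probe set of their own and were not analysed here. The arrays, Affymetrix Drosophila_2, read RNA near its 3' end and give a log2 level per probe set.

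RNA came from whole heads of adult flies in 2 groups of 4 biological replicates. HEXIM knockdown flies carried the GMR-Gal4 driver and a UAS transgene for an RNAi hairpin against Hexim. WT flies were of the W118 strain and carried neither, so that the driver, the hairpin and any difference in background cannot be told apart. The labels give W118 as the strain of both groups and 29°C as the rearing temperature of all samples. Hexim encodes an inhibitor of P-TEFb, a kinase that releases paused RNA polymerase II. GMR-Gal4 is active in differentiating eye cells. The chemosensory neurons of the head sit in the antenna, the maxillary palp, the labellum and the pharynx, all parts from which RNA was drawn. Chemosensory neurons outside the head were not sampled.

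Odorant receptors are channels built from a tuning receptor, which sets the odours a neuron answers to, and the shared co-receptor Orco. Gustatory receptors detect sugars, bitter compounds and, in the antenna, carbon dioxide. Ionotropic receptors are relatives of the glutamate receptors, work with the co-receptors Ir8a, Ir25a and Ir76b, and sense acids, amines, taste compounds, humidity and temperature. Most tuning receptors are known to be made in small sets of neurons, so that their RNA is diluted in a whole head. In RNA of whole heads, fewer neurons of a type and less RNA per neuron cannot be told apart.

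The probe set of Hexim read 7.60, 7.54, 7.52 and 7.77 (log2) in the HEXIM knockdown arrays and 8.14, 7.85, 7.96 and 7.79 in the WT arrays, with no overlap, but its log2 fold change of -0.33 (SE 0.10) did not pass the test (limma adjusted p = 0.418). Head markers were present in both groups, with all 9 measured photoreceptor genes and 11 of 12 neuron genes at 5.5 or more. WT replicates 1 and 3 and HEXIM knockdown replicate 4 were separated from the remaining 5 arrays by the leading principal component (51.3% of the variance). In these 3 arrays the middle probe sets of the control genes were lowest against those at the 3' end, by -1.98 in the knockdown array and by -1.75 and -1.95 in the WT arrays, against -1.08 to -0.86 in the others. For some results that these arrays moved, the value without them stands beside it. Others moved too, so that a single value is no sign of stability.

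Most receptor probe sets were low. A mean log2 level of 5.5, the threshold of the rule, lies close to the median of each array (5.43 to 5.57), so that it divides the probe sets of the array about evenly and is no detection call. Receptors at or above it numbered 19 of 186 (10.2%) in HEXIM knockdown heads and 22 of 186 (11.8%) in WT heads, against 49.8% of all probe sets in either genotype. The median receptor probe set had a level of 3.96 in HEXIM knockdown heads and 3.96 in WT heads, and that of all probe sets 5.49 in HEXIM knockdown heads and 5.48 in WT heads. Of the 186, 147 were under 5.5 in each of the 8 arrays, 12 were at or above it in all 8, and 27 lay between. These shares describe a threshold and not expression, because the level of a probe set also depends on how well its probes bind.

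The ionotropic class had the highest share, a difference given without a test. Among odorant receptors 4 of 63 (6.35%) were at 5.5 or more in HEXIM knockdown heads and 6 of 63 (9.52%) in WT heads. Gustatory receptors gave 5 of 63 (7.94%) in HEXIM knockdown heads and 6 of 63 (9.52%) in WT heads. Ionotropic receptors gave 10 of 60 in each genotype (16.7%). The 3 receptors above the threshold in WT heads alone lay near it, Or43b with means of 5.49 in HEXIM knockdown and 5.76 in WT heads, Gr28a with 5.34 in HEXIM knockdown and 5.65 in WT heads, and Or83c with 5.43 in HEXIM knockdown and 5.55 in WT heads. No receptor was above it in HEXIM knockdown heads alone. Without the 3 arrays that stood apart, the means rest on 3 HEXIM knockdown and 2 WT arrays only. By these means 17 receptors in HEXIM knockdown heads (9.14%) and 18 in WT heads (9.68%) reached it. The order of the genotypes then turned for odorant receptors, with 5 of 63 (7.94%) in HEXIM knockdown heads and 4 of 63 (6.35%) in WT heads. Gustatory receptors gave 4 of 63 (6.35%) in HEXIM knockdown heads and 6 of 63 (9.52%) in WT heads, and ionotropic receptors 8 of 60 (13.3%) in each.

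**Figure D1:**
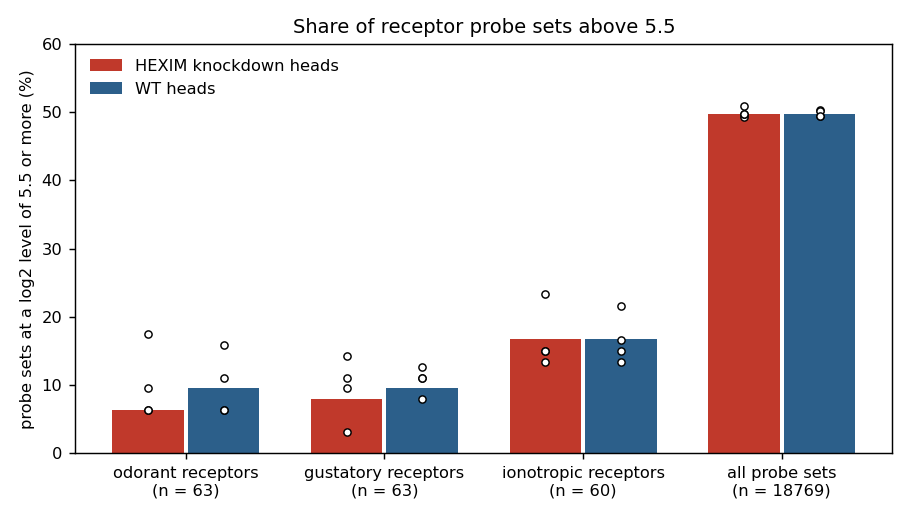
The vertical axis gives the percentage of probe sets with a mean log2 level of 5.5 or more, for HEXIM knockdown (red bars) and WT heads (blue bars), by receptor class and for all probe sets. White points are the single arrays. With all arrays the 3 receptor classes lie between 6.35% and 16.7%, all below the 49.8% of all probe sets.

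The threshold fell inside a dense range of levels. Just inside it were Or83c at 5.55 in WT heads, a receptor for farnesol, Gr59c at 5.58, a bitter receptor, and Gr28a at 5.65. Just outside were Or35a at 5.45, Ir94c at 5.43 and Or71a at 5.40 in WT heads. With a threshold of 5, 41 receptors (22.0%) and 55.8% of all probe sets passed in WT heads. With a threshold of 6, 13 receptors (6.99%) and 44.9% of all probe sets did.

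The co-receptors, which most chemosensory neurons share, were all below the threshold. Orco, the partner of the tuning odorant receptors, stood at 5.38, 5.56, 5.41 and 4.85 in the HEXIM knockdown arrays and at 5.10, 4.94, 4.93 and 5.04 in the WT arrays. HEXIM knockdown replicates 1 to 3 lay above every WT array and replicate 4 below them all, so the groups overlapped. The log2 fold change was 0.30 (SE 0.15, 95% interval -0.04 to 0.63, limma adjusted p = 0.793). Replicate 4 was one of the arrays that stood apart, and without those 3 arrays the fold change was 0.46 (limma adjusted p = 0.314).

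Ir25a, the broadly used ionotropic co-receptor, had levels of 5.29, 5.39, 5.09 and 5.31 in the HEXIM knockdown arrays and 5.46, 4.92, 5.20 and 5.19 in the WT arrays. Ir76b, a co-receptor for amines and for several tastes, had 5.06, 5.09, 5.12 and 4.62 in the knockdown arrays and 4.78, 5.04, 4.89 and 4.93 in the WT arrays. Both overlapped between the genotypes, and in Ir76b it was again knockdown replicate 4 that was low. Ir8a, a co-receptor for acids, averaged 3.65 ± 0.07 in HEXIM knockdown heads and 3.66 ± 0.10 in WT heads (SD, n = 4 each). The intervals of the log2 fold change ran from -0.20 to 0.36 for Ir25a, from -0.22 to 0.35 for Ir76b and from -0.19 to 0.17 for Ir8a. The fold change of Ir25a was 0.08 with all arrays and 0.20 without the 3 arrays that stood apart, and limma called it in neither fit.

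Among the tuning odorant receptors, the 6 at or above 5.5 in WT heads were Or30a, Or1a, Or65c, Or92a, Or43b and Or83c. Or30a and Or1a are known as receptors of the larval olfactory organ. Of the 13 larval receptors measured, these were the 2 above the threshold, and the other 11 lay between 3.01 and 4.80 in WT heads. Or30a stood at 6.10, 6.59, 6.74 and 7.93 in the HEXIM knockdown arrays and at 7.87, 6.64, 7.52 and 6.30 in the WT arrays. The 3 highest of these values came from the 3 arrays that stood apart. Or1a was at 6.41, 6.77, 7.13 and 7.23 in the knockdown arrays and 6.93, 6.99, 7.04 and 6.33 in the WT arrays, so that the genotypes overlapped over most of their range.

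Receptors of adult neurons gave few probe sets over the threshold. Of 36 antennal odorant receptors, 2 were at 5.5 or more in HEXIM knockdown heads and 4 in WT heads. Or65c averaged 6.28 ± 0.26 in HEXIM knockdown heads and 6.33 ± 0.07 in WT heads (SD, n = 4 each). Its neighbours Or65a and Or65b, known from the same antennal neurons, averaged 5.20 and 4.29 in HEXIM knockdown heads and 5.22 and 4.21 in WT heads. None of the 7 receptors of the maxillary palp, the second olfactory organ, reached the threshold, and the highest was Or71a with 5.35 in HEXIM knockdown and 5.40 in WT heads. Of the 10 receptors linked to pheromones, Or65c was the one above it, and Or47b, which answers to fly odours in courtship, averaged 5.31 in HEXIM knockdown heads and 5.30 in WT heads.

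The gustatory receptors over the threshold in WT heads were Gr39b, Gr36a, Gr92a, Gr33a, Gr28a and Gr59c. Gr33a, a receptor that most bitter neurons share, stood at 5.19, 6.18, 6.03 and 6.16 in the HEXIM knockdown arrays and at 5.54, 5.57, 5.79 and 5.84 in the WT arrays. Knockdown replicate 1 was below all WT arrays and the other 3 knockdown arrays above them all. Of the 11 receptors on the bitter list used here, all measured, Gr33a and Gr59c were over 5.5 in both genotypes. Gr39b, Gr36a, Gr92a and Gr28a were not on it, so the count is of the list and not of all receptors of bitter neurons. Gr66a, a marker of bitter neurons, was on the list, with a mean of 3.68 in HEXIM knockdown and 3.41 in WT heads. The 5 sugar receptors measured, Gr5a, Gr43a, Gr61a, Gr64a and Gr64f, lay between 3.13 and 3.83 in HEXIM knockdown heads and between 3.20 and 4.00 in WT heads. Of the pair that forms the carbon dioxide receptor, Gr63a averaged 5.29 in HEXIM knockdown and 5.38 in WT heads, and Gr21a 4.11 in HEXIM knockdown and 4.18 in WT heads.

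Of the 22 receptors over the threshold in WT heads, 10 were ionotropic. Ir68a, needed for sensing moist air, was the receptor with the highest deposited level, at 7.15, 7.51, 7.70 and 7.89 in the HEXIM knockdown arrays and at 8.20, 8.15, 7.90 and 7.80 in the WT arrays. The WT values lay near the upper quartile of all probe sets (7.93), and the genotypes overlapped through the highest knockdown array and the lowest WT array. Ir40a, needed for sensing dry air, was at 6.15, 6.12, 6.15 and 6.73 in the knockdown arrays and at 6.63, 6.06, 6.40 and 5.97 in the WT arrays. The other members of the temperature and humidity list, Ir21a, Ir25a, Ir93a and Gr28b, lay between 3.59 and 5.19 in WT heads.

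Of 15 antennal ionotropic receptors, 5 were at 5.5 or more in each genotype, namely Ir68a, Ir40a, Ir76a, Ir31a and Ir41a. Ir76a, an antennal receptor for amines, stood at 6.71, 6.87, 6.74 and 6.93 in the HEXIM knockdown arrays and at 6.90, 7.02, 7.02 and 7.09 in the WT arrays. Ir31a averaged 6.40 ± 0.37 in HEXIM knockdown heads and 6.25 ± 0.14 in WT heads, and Ir41a, a receptor for polyamines, 6.13 ± 0.48 in HEXIM knockdown heads and 6.20 ± 0.42 in WT heads (SD, n = 4 each). Receptors outside these lists were also over the threshold. Ir10a averaged 7.32 ± 0.54 in HEXIM knockdown heads and 7.07 ± 0.43 in WT heads, and Ir52c 6.65 ± 0.64 in HEXIM knockdown heads and 6.45 ± 0.34 in WT heads (SD, n = 4 each). Ir67b averaged 5.89 ± 0.27 in HEXIM knockdown heads and 6.27 ± 0.12 in WT heads (SD, n = 4 each).

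**Figure D2:**
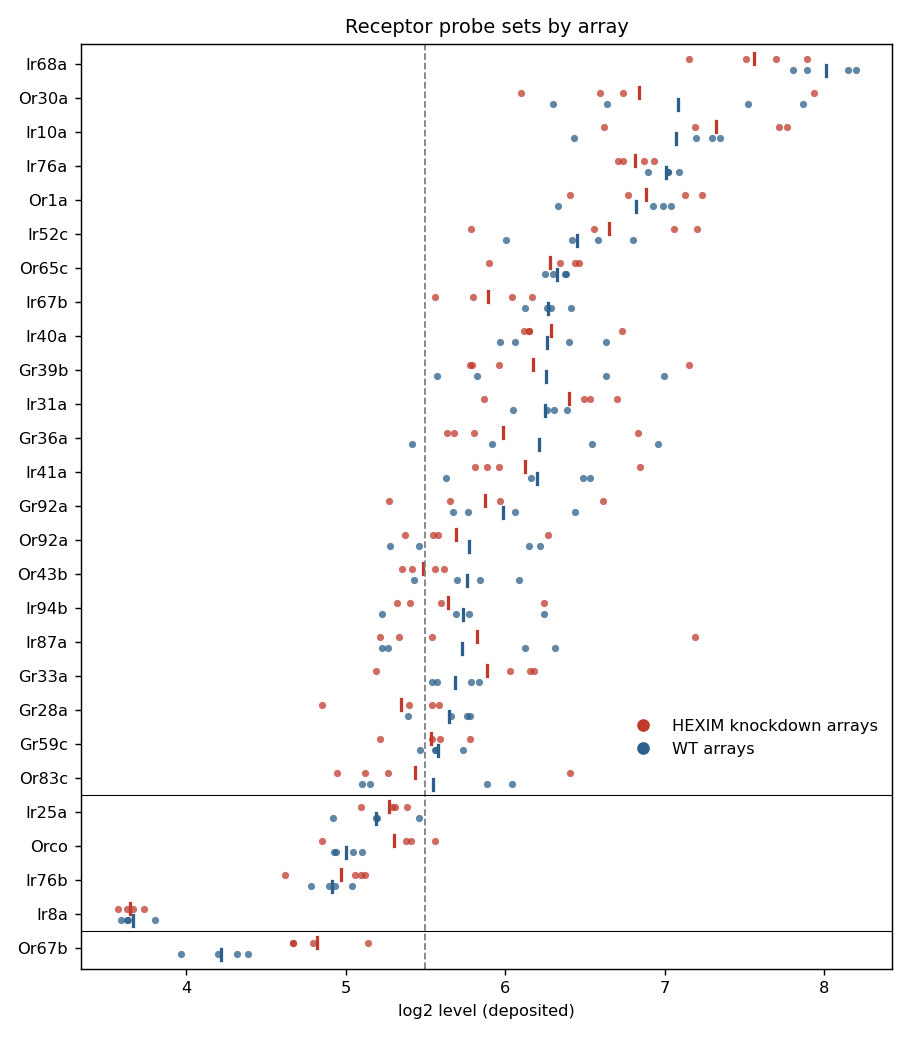
The horizontal axis gives the deposited log2 level of the 22 receptor probe sets at a mean of 5.5 or more in WT heads (top block), the 4 co-receptors (middle) and Or67b (bottom), with 1 point per array, HEXIM knockdown in red above WT in blue. Short vertical lines are group means and the dashed line is 5.5. In Or67b every red point lies to the right of every blue point, and in each of the other 26 probe sets shown the groups overlap.

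Different probe sets of a gene often disagreed in level. Of the 166 genes, 154 were read by 1 probe set and 12 by more. Ir10a was read at 7.32 by one probe set and 4.28 by the other in HEXIM knockdown heads, and at 7.07 and 4.30 in WT heads. The probe sets of Ir40a averaged 6.29 and 4.99 in HEXIM knockdown heads and 6.26 and 4.99 in WT heads. Ir41a had means of 6.13, 4.90 and 3.74 in HEXIM knockdown heads and 6.20, 4.91 and 3.80 in WT heads. These 3 genes were each over the threshold through 1 probe set alone. Gr39a, whose transcripts differ in their first exons, was read by 5 probe sets with means of 4.18 to 5.11 in WT heads.

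The position of the genes was set beside their levels, from the RefSeq annotation and with the highest probe set of each gene. Of 45 receptor genes whose span overlaps that of another gene, 3 were at 5.5 or more in WT heads (6.67%), namely Ir76a, Or1a and Or43b. Of the 121 that overlap none, 19 were (15.7%). Receptors next to another receptor gene reached it in 7 of 71 cases (9.86%), and those without such a neighbour in 15 of 95 (15.8%). The probe sets of overlapping genes had levels of their own. Cul1 at Or43b averaged 10.5 in HEXIM knockdown and 10.6 in WT heads, and CG14102 at Ir76a 5.92 in HEXIM knockdown and 6.07 in WT heads. CG3777 at Or1a had probe sets at 9.06 and 3.06 in HEXIM knockdown heads, and at 9.37 and 3.15 in WT heads.

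Many receptors above the threshold were high in the 3 arrays that stood apart, in both genotypes. Of these 22, 10 were higher in these arrays than in all other arrays of the same genotype (45.5%), against 16.9% of all probe sets at 5.5 or more. Over all receptors it was 62 of 186 (33.3%), against 26.3% of all probe sets. Among those below 5.5 in WT heads it was 31.7% of receptors and 35.6% of all probe sets. Besides Or30a, Ir40a and Ir41a, the 10 were Gr39b, Gr36a, Gr92a, Or92a, Ir94b, Ir87a and Or83c. The WT mean that chose the 22 includes the WT arrays that stood apart. Without those arrays, Or92a, Ir94b, Ir87a and Or83c would not have been chosen. Among all probe sets the share also differed with level, 35.6% below 5.5 and 16.9% from there on, and levels were not matched. The probe sets behind the 16.9% were chosen by the same mean. The part of the choice or of level in the gap between 45.5% and 16.9% was not tested. The gap is therefore not read as a property of receptors.

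Gr39b stood at 5.79, 5.78, 5.96 and 7.15 in the HEXIM knockdown arrays and at 6.99, 5.82, 6.63 and 5.57 in the WT arrays. Gr36a was at 5.63, 5.80, 5.68 and 6.83 in the knockdown arrays and at 6.96, 5.92, 6.55 and 5.41 in the WT arrays. In both genes the high values were those of knockdown replicate 4 and of WT replicates 1 and 3. Ir87a gave the widest spread, with 5.33, 5.54, 5.22 and 7.19 in the knockdown arrays and 6.31, 5.22, 6.12 and 5.26 in the WT arrays. In WT replicates 2 and 4 alone, Or92a, Ir94b, Ir87a and Or83c averaged under 5.5, and 18 of the 22 stayed above. Without the 3 arrays the log2 fold change was 0.00 for Or30a, against -0.24 with all arrays, 0.15 for Gr39b, against -0.08, and 0.04 for Gr36a, against -0.22. limma called none of these 3 genes in either fit. The part of RNA quality in these levels was not tested.

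HEXIM knockdown replicate 1 was low in many receptors. It held the lowest of the 8 values in 12 of the 22 receptors over the threshold and in 61 of all 186 (32.8%), against 18.6% of all probe sets. Knockdown replicate 4 held the highest value in 73 of the 186 (39.2%), against 23.6% of all probe sets. The number of receptors at 5.5 or more was 14, 21, 20 and 34 in the HEXIM knockdown arrays and 28, 20, 27 and 17 in the WT arrays. The knockdown group therefore held both the lowest and the highest count. Over all probe sets too, knockdown replicate 1 had the lowest count at 5.5 or more (9242) and replicate 4 the highest (9561).

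**Figure D3:**
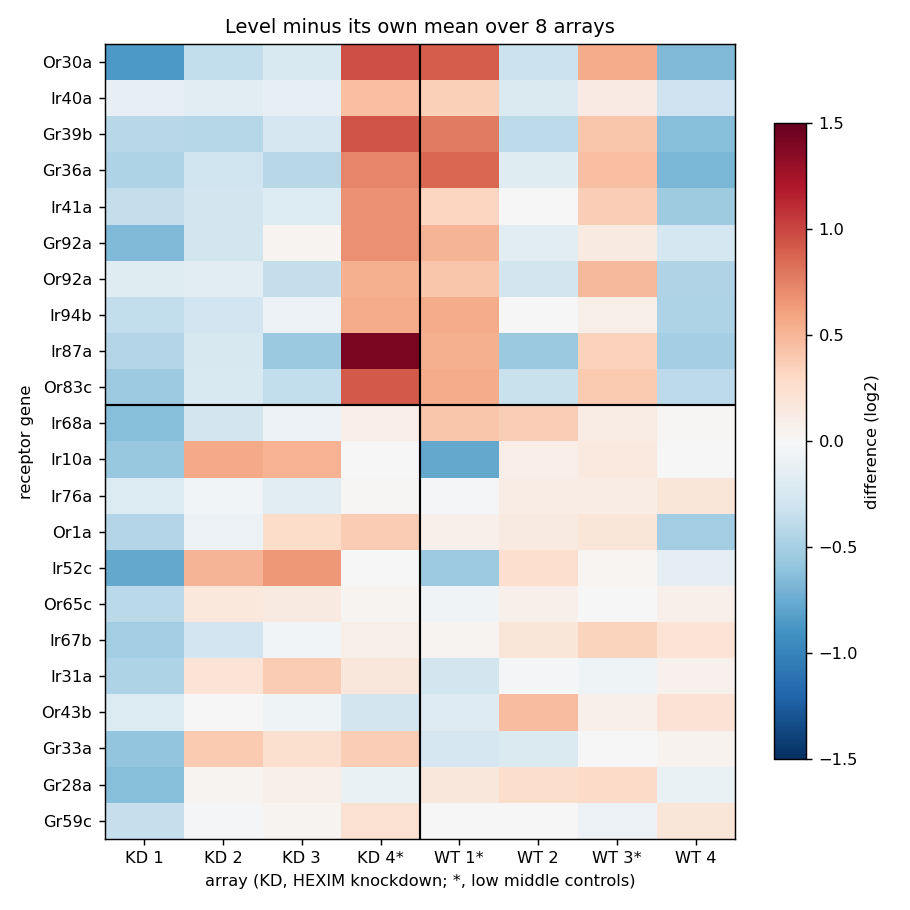
Each row is a receptor probe set with a mean of 5.5 or more in WT heads and each column an array, HEXIM knockdown left of WT, with stars on the 3 arrays of low middle control probe sets. Colour gives the log2 level minus the mean of that probe set over the 8 arrays. The 10 rows above the line are red in the starred arrays of both genotypes, and the column of knockdown replicate 1 is mostly blue.

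No receptor probe set passed the test between HEXIM knockdown and WT heads. Over all 18769 probe sets limma called 48 at an adjusted p under 0.05 (0.256%), 27 higher (0.144%) and 21 lower (0.112%), and 0 of the 186 receptors. At an unadjusted p under 0.05 there were 7 receptors (3.76%), against 7.24% of all probe sets. limma-trend also called 0 receptors, and limma with array weights 3 (1.61%), Orco, Ir67b and Or67b, against 507 of all probe sets (2.7%) in the same fit. With weights the log2 fold changes were 0.52 for Orco (adjusted p = 0.0272), -0.46 for Ir67b (adjusted p = 0.0316) and 0.53 for Or67b (adjusted p = 0.0250), in a limma fit that gave knockdown replicate 2 a weight of 9.03, against 0.27 to 1.59 for the others.

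The log2 fold changes of the receptors were small. Their median was -0.01, beside -0.02 over all probe sets, and 82 of 186 were positive (44.1%), as were 44.6% of all probe sets. The medians were close to 0 for odorant, -0.05 for gustatory and -0.01 for ionotropic receptors. The 95% interval of a receptor reached a median of 0.28 to either side of its estimate and 1.05 at most. In the 22 receptors over the threshold it reached a median of 0.54. These intervals are not adjusted for the number of probe sets tested, so that a call needs a larger change than they show. Changes of that size, and larger ones, could therefore go uncalled in many of the 22.

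Or67b, a tuning receptor of antennal neurons that answers to plant volatiles, was the one receptor with a log2 fold change beyond 0.5 in either direction. It stood at 4.67, 4.67, 4.80 and 5.14 in the HEXIM knockdown arrays and at 4.32, 3.97, 4.39 and 4.20 in the WT arrays. Every knockdown array was above every WT array, all 8 below 5.5. The log2 fold change was 0.60 (SE 0.14, 95% interval 0.29 to 0.91, limma adjusted p = 0.215). As many as 5.35% of all probe sets had groups that did not overlap, and Or67b is singled out here for its size, so that the separation is a description. Over the alternatives run, the fold change was 0.49 to 0.66 and the limma adjusted p 0.0250 to 0.521.

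The span of Or67b overlaps those of CG3335 and Cyp40 in RefSeq. The probe set of CG3335 had a log2 fold change of 0.10 (SE 0.14) and that of Cyp40 -0.25 (SE 0.11), neither called by limma.

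Ir68a and Ir67b had the largest differences among receptors over the threshold, both lower in HEXIM knockdown heads and neither called. Ir67b stood at 5.56, 5.80, 6.04 and 6.17 in the HEXIM knockdown arrays and at 6.12, 6.26, 6.41 and 6.29 in the WT arrays. The highest knockdown array overlapped the lowest WT array. The log2 fold change of Ir67b was -0.38 (SE 0.14, limma adjusted p = 0.545) and that of Ir68a -0.45 (SE 0.17, limma adjusted p = 0.554). Knockdown replicate 1 was the lowest array for both, and without it the fold changes were -0.27 for Ir67b and -0.31 for Ir68a. Without the 3 arrays that stood apart they were -0.47 for Ir67b and -0.53 for Ir68a, and neither was called. The groups of both then did not overlap, as in 18.8% of receptors and 26.6% of all probe sets. Ir76a had a log2 fold change of -0.19 (SE 0.08, limma adjusted p = 0.671), and of -0.28 without the 3 arrays.

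In 7 of the 186 receptor probe sets (3.76%) the groups did not overlap, against 5.35% of all probe sets. All 7 were below 5.5 in both genotypes. In 4 the knockdown arrays were the higher, where 1.99% of all probe sets were, and in 3 the lower, where 3.37% of all probe sets were. Beside Or67b the higher ones were Gr66a with a log2 fold change of 0.27, Gr2a, a receptor of pharyngeal neurons, with 0.21, and Ir60e with 0.12. The lower ones were Gr22c with -0.23, Gr22d with -0.22 and Or94a with -0.11. None was called, and their limma adjusted p values were 0.546 to 0.874.

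Gr22c and Gr22d belong to 6 gustatory receptor genes of the Gr22 name, all measured, of which Gr22a to Gr22e each lie next to another receptor gene in RefSeq. Gr22c was at 3.17, 3.18, 3.28 and 3.24 in the HEXIM knockdown arrays and at 3.66, 3.33, 3.45 and 3.34 in the WT arrays. Gr22d was at 3.47, 3.60, 3.47 and 3.62 in the knockdown arrays and at 4.00, 3.64, 3.66 and 3.75 in the WT arrays. Both were separated by a narrow gap, and WT replicate 1 was the highest array for each. Without the 3 arrays that stood apart, that one among them, the log2 fold changes were -0.12 for Gr22c and -0.18 for Gr22d. Over the 6 genes the log2 fold changes ran from -0.23 to 0.01, 5 of them negative.

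**Figure D4:**
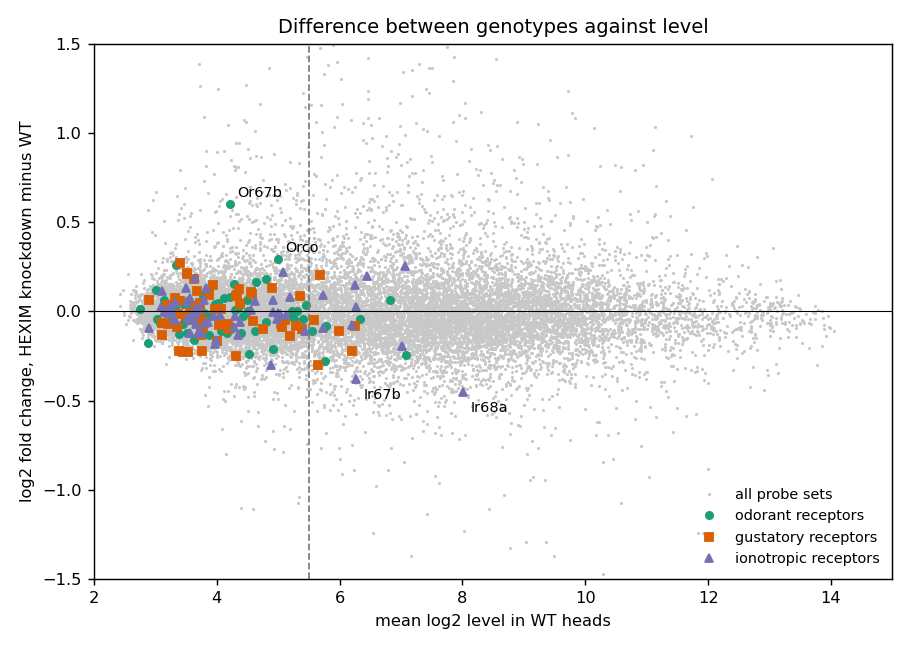
The horizontal axis is the mean log2 level in WT heads and the vertical axis the log2 fold change, HEXIM knockdown minus WT, with all probe sets in grey and the receptors in colour by class. The dashed line is 5.5, and 42 grey probe sets with fold changes beyond 1.5 in either direction lie outside the plot. Receptors crowd at the left of the line, and Or67b is the one that lies beyond 0.5.

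Genes that work beside the receptors were mostly over the threshold. The list of chemosensory partners held odorant-binding proteins, which carry odours through the sensillum fluid, and enzymes, membrane proteins and transcription factors of chemosensory cells. Of 27 measured, 24 were at 5.5 or more in HEXIM knockdown heads and 23 in WT heads. The partners include genes that other head cells express too. The odorant-binding protein Obp19d averaged 11.7 in HEXIM knockdown and 11.8 in WT heads, and lush, which binds a pheromone, 8.54 in HEXIM knockdown and 8.59 in WT heads. Snmp1, a membrane protein of pheromone-sensing neurons, averaged 6.44 in HEXIM knockdown heads and 6.52 in WT heads.

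limma called 0 partner genes, with 1 at an unadjusted p under 0.05, and 20 of 27 log2 fold changes were positive with a median of 0.12. Of all probe sets, 7.24% had an unadjusted p under 0.05 and 44.6% a positive log2 fold change, with a median of -0.02. The largest was that of Obp99a, at 0.98 (SE 0.78, limma adjusted p = 0.992). Among 20 genes of the sensory cilium, the neuronal ending that carries the receptors, 4 were at 5.5 or more in HEXIM knockdown heads and 2 in WT heads, and 0 were called, with 1 at an unadjusted p under 0.05. Their median log2 fold change was 0.00.

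Marker lists of other head tissues were read in the same fit. In it 0.256% of all probe sets were called, 7.24% had an unadjusted p under 0.05 and 44.6% a positive log2 fold change. All 8 fat body markers had positive log2 fold changes, with a median of 0.82, and limma called 0 of them, with 2 at an unadjusted p under 0.05. Their mean level was 11.3 to 12.3 in the HEXIM knockdown arrays and 9.79 to 11.7 in the WT arrays. Of these 8, Yp1, Yp2, Yp3 and fit also make up the list of female head markers, with a median of 0.83, 0 called by limma and 0 at an unadjusted p under 0.05. Their mean level was 11.3 to 12.9 in the HEXIM knockdown arrays and 9.21 to 12.2 in the WT arrays. All 9 photoreceptor markers had negative ones, with a median of -0.11, and limma called 0 of them, with 2 at an unadjusted p under 0.05. The 5 muscle markers had a median of -0.33, and TpnC4, a troponin of flight and jump muscle, was called lower at -1.24 (SE 0.14, limma adjusted p = 0.0156). Of 9 glia markers limma called 0, with 2 at an unadjusted p under 0.05 and a median of 0.01, and moody, a receptor of the blood-brain barrier, had -0.60 (SE 0.10, limma adjusted p = 0.0730). The 11 neuron genes over 5.5 and the 1 below it gave a median of 0.02. The part of tissue composition or of the sex of the flies in the receptor values was not tested.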

How the data were processed

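RNA of whole adult heads from 4 HEXIM knockdown and 4 WT samples was measured on Affymetrix Drosophila_2 arrays, and groups followed the genotype in the labels. The values deposited by the authors are log2 levels. RMA and Affymetrix Expression Console are named in the submitters' processing notes, whereas GCRMA is named in the methods of the study. No further transformation and no detection calls were applied, and precision is limited by the number of arrays.

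limma 3.58.1 in R 4.3.3 was fitted to 18769 probe sets, without 183 controls, with HEXIM knockdown minus WT as the contrast, no filter and p-values adjusted by Benjamini-Hochberg. Calls were made where this adjusted p was below 0.05. Intervals are 95% intervals of this fit. In simulated data of 18769 probe sets it recovered 22%, 78%, 92% and 98% of log2 changes of 0.5, 1, 2 and 3, and 8 of its 153 calls were false. Tables and figures were made in Python 3.11.15 (matplotlib 3.10.9, scipy 1.17.1, pandas 2.3.3, numpy 2.4.6). Of the probe sets, 13647 had 1 gene symbol, and 5 that join a receptor with another gene were left out. RefSeq, Release 6, gave names and neighbouring genes.

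Members, lists and alternatives were chosen with earlier results of these data known. Named genes were the co-receptors, the 15 highest receptors, any called, the 10 largest differences without overlap, 3 on each side of 5.5, list members over 5.5 and genes with probe sets on both sides of it. Or43b, Ir94b, Ir87a, Or65a, Or65b, Or47b, Gr22a, Gr22e, the sugar and carbon dioxide receptors and the non-receptor genes other than Hexim and TpnC4 were named after their values were seen.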

Additional observations from a re-analysis of the deposited data

Results flagged for a closer look

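Among 76 groups of 4 values tested, 8 held an array far from the other 3 of its genotype, where chance gives about 3.8 in independent groups. The groups share the same arrays and are not independent, so the 8 are not read as outliers of single genes. HEXIM knockdown replicate 4, named below, was one of the 3 arrays that stood apart. HEXIM knockdown replicate 4 lay high in Ir40a at 6.73 (others 6.12 to 6.15), in Gr39b at 7.15 (others 5.78 to 5.96), in Gr36a at 6.83 (others 5.63 to 5.80) and in Ir41a at 6.85 (others 5.81 to 5.96). The same array lay low in Ir76b, at 4.62 (others 5.06 to 5.12). HEXIM knockdown replicate 1 lay low in Gr33a at 5.19 (others 6.03 to 6.18). WT replicate 1 lay low in Ir10a at 6.43 (others 7.20 to 7.35). WT replicate 4 lay low in Or1a at 6.33 (others 6.93 to 7.04).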

How the results depend on the processing

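The count of 48 called probe sets was 507 with array weights, 3 without the 3 arrays that stood apart, a fit added after seeing the data, and 10 to 48 without a single array. Receptors called were 3 with array weights and 0 in every other fit. Same-numbered arrays did not deviate together (correlations -0.72 to 0.57), and with the replicate number as a block 1 probe set and 0 receptors were called. Receptors without overlap between groups were 7 as deposited (3.76%, against 5.35% of all probe sets). Without the 3 arrays they were 35 (18.8%, against 26.6% of all probe sets). They were 4 after quantile normalization and 11 after centring each array on its median. For these last counts no share of all probe sets is given, so they are not read as results about the receptors.

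The share of odorant receptors at the threshold in WT heads was 20.6% at 5, 4.76% at 6 and 4.76% when every WT array had to reach 5.5. For gustatory receptors it was 20.6%, 3.17% and 4.76%, and for ionotropic receptors 25% at a threshold of 5. Of 444 fold changes under alternatives, for 37 probe sets of named receptors, 3 were called at an adjusted p under 0.05, all with array weights, and none of the 37 was as deposited. The fold change turned its sign in 63 of these values, of 19 probe sets, none called, and in 6 probe sets without the 3 arrays. Levels near the array median have unknown background, since no detection calls were used.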
